A study of Homo sapiens with 96 samples.

Results

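The data described here are the exon-level splicing events of A549 cells after 4 days of GSK591. They comprise every skipped exon (SE), pair of mutually exclusive exons (MXE), alternative 3′ splice site (A3SS) and alternative 5′ splice site (A5SS) that was counted in 3 DMSO and 3 GSK591 libraries. Together these were 131062 events, of 1058940 listed over the 8 tables of the series, in which the same event can recur. A549 is an established human lung adenocarcinoma line, and no sample carried a genetic change made for the study. Cells received 1 µM GSK591, an inhibitor of PRMT5, or 0.01% DMSO as vehicle for 4 days, after which poly(A) RNA was sequenced. Further groups of 3 libraries each served for comparison: 1 µM GSK591 for 2 days, 1 µM MS023 (an inhibitor of the Type I PRMTs) for 4 days, and 1 µM GSK591 with its own DMSO control at 7 days. The 2-day GSK591 and the 4-day MS023 libraries have the same DMSO control as the 4-day GSK591 libraries. The labels do not say whether libraries of a group came from separate cultures, so p-values measure the spread between these libraries, which may be technical.

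PRMT5 places symmetric dimethylarginine on the Sm proteins, which form the ring around each spliceosomal snRNA, and on other RNA-binding proteins. An internal exon is recognised when the U1 snRNP pairs with the 5′ splice site at its end and the U2 auxiliary factor binds the polypyrimidine tract and AG at its start. SR proteins and hnRNPs bound nearby favour or oppose this recognition. An exon that is not recognised is skipped, and a splice site that loses out can give way to a competing site.

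For every event the deposited counts give reads of an inclusion form and of a skipping form. Ψ is the share of transcripts with the inclusion form after each count is divided by its effective length, and ΔΨ is the mean Ψ of the GSK591 libraries minus that of the DMSO libraries. For SE the inclusion form holds the exon, for A3SS and A5SS it is the longer exon, and for MXE it holds the exon that comes earlier in the transcript. An event was tested where all 6 libraries had at least 10 reads, and called at an adjusted p under 0.05. Of the 131062 events 112359 were tested and 18703 had too few reads. Libraries had 77766580 to 102321610 reads summed over these events, where a read can serve several events. Pairs of replicate libraries differed by 2.38 to 2.66 times the variance expected from counting alone, so no library was a copy of another. Of 8 marker genes of lung epithelial cells and this line 7 had a tested event, with KRT8 and KRT18 at a median of 25500 and 35700 reads per event and library. KRT19 had no tested event, and EPCAM had 1, with only 19.2 reads. Of 7 marker genes of blood, stromal and endothelial cells 1 did, COL1A1, with 28.8 reads.

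Most of the SE called after 4 days of GSK591 were skipped more. Of 79993 tested SE 5578 (6.97%) were called, of which 4361 had lower Ψ with GSK591 (5.45% of the tested SE) and 1217 higher Ψ (1.52%), so that 78.2% of the calls were falls. The called events lie in 3004 genes, of 10634 with a tested SE. Exons with lower Ψ had been included in nearly all transcripts of the control cells: their median Ψ was 0.958 with DMSO and 0.806 with GSK591, against a median of 0.992 with DMSO over all tested SE. Exons with higher Ψ started from a median of 0.327 and reached 0.622. The median ΔΨ was -0.0902 for the falls and 0.096 for the rises, and 2023 falls and 587 rises reached a size of 0.1. The median over all tested SE was -0.0019.

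The mean Ψ over all tested SE was 0.857, 0.858 and 0.857 in the DMSO libraries and 0.847, 0.848 and 0.848 in the GSK591 libraries. All GSK591 libraries lay below all DMSO libraries, with a difference of -0.0098 (two-sided exact permutation test, p = 0.1, which is the smallest that 3 against 3 libraries allow). A model in which the log2 odds of inclusion were tested with limma called 1042 SE, with 902 falls and 140 rises, and had 12865 SE (16.1%) at an unadjusted p under 0.05. Leaving out 1 library left 3647 to 4683 calls, and the lowest counts came without GSK591 library a (3647) and without GSK591 library c (3680).

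**Figure D1:**
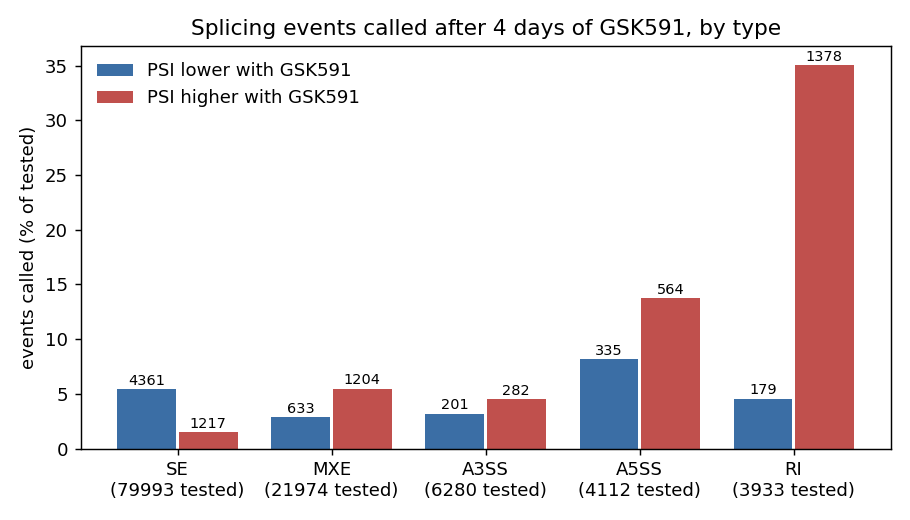
Share of tested events called with lower (blue) or higher (red) Ψ after 4 days of GSK591, as a percentage of the tested events of each type, with the number of events above each bar. SE are the only type among these 5 in which falls (4361) outnumber rises (1217). RI, retained introns, are shown for reference. Of the 79993 tested SE only 33076 had at least 10 reads of each form, so the heights of SE and the other types are not on an equal footing.

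The other exon events moved in both directions. Of 21974 tested MXE 1837 (8.36%) were called, with 1204 rises (5.48%) and 633 falls (2.88%). Of 6280 tested A3SS 483 (7.69%) were called, with 282 rises (4.49%) and 201 falls (3.20%). A5SS had the largest called share of the exon events, at 899 of 4112 (21.9%), with 564 rises (13.7%) and 335 falls (8.15%). For reference, 1557 of 3933 tested retained introns (RI) were called (39.6%), of which 1378 rose (35.0%) and 179 fell (4.55%), and the mean Ψ of RI was 0.382 ± 0.00169 with DMSO and 0.435 ± 0.00184 with GSK591 (SD, n = 3). Reads that fall inside the alternative segment are part of the inclusion count, so an exon event that overlaps or borders a retained intron can receive reads of that intron. Such events made up 8.63% of tested and 14.1% of called SE, 12.1% and 23.4% of MXE, 23.4% and 31.1% of A3SS, and 30.2% and 27.6% of A5SS. With them left out, 4678 SE were called, and 77.0% of these were falls. The falls of the alternative sites went down most: A3SS then had 111 falls and 214 rises, A5SS 196 falls and 468 rises, and MXE 487 falls and 878 rises. With limma 418 MXE and 347 A5SS were called. Leaving out GSK591 library c left 1087 MXE, and leaving out GSK591 library a left 1178.

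The 8 exons with the largest falls among called SE with a mean of at least 50 reads per library, 1 exon per gene, were those of RHPN1, ULK3, DALRD3, MDM4, CACNA1G, ARRDC1, SUN1 and ACTN4. The 5′ splice sites of 7 of them are shown, because this site sets the end of the exon that is skipped, and that of RHPN1 is not shown. Each line gives 9 exon and 12 intron bases in GRCh37 (the same coordinates as hg19), 5′ to 3′ on the transcribed strand. Capitals mark the bases that match the consensus CAGGTAAGT, of which the first 3 bases belong to the exon.
ULK3 (chr15:75130481-75130501, - strand): cacactgAGGTgcccactgag
DALRD3 (chr3:49053394-49053414, - strand): acagagatGGTgAGgcataga
MDM4 (chr1:204506617-204506637, + strand): caactgaAGGTAAaatcacca
CACNA1G (chr17:48680241-48680261, + strand): acagtgaAGGTgAtgggggct
ARRDC1 (chr9:140507954-140507974, + strand): tgcttcCtGGTgAGagcccag
SUN1 (chr7:889662-889682, + strand): catgtgCAGGTtgtctctcgc
ACTN4 (chr19:39219013-39219033, + strand): tacagcCtGGTAtGcagctct
These 7 sites match the consensus at 4 to 6 of 9 bases. The 8 exons with the largest rises, chosen in the same way, lie in DTYMK, SPG20, RAD51D, CUL2, NME4, HMGN1, TANK and FAM45A. Their sites match at 5 to 7 of 9 bases.
DTYMK (chr2:242621322-242621342, - strand): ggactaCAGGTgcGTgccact
SPG20 (chr13:36910412-36910432, - strand): ggaaatCAGGTAAcaaagttt
RAD51D (chr17:33445508-33445528, - strand): cattggCAGGTttGTgtgtgt
CUL2 (chr10:35378812-35378832, - strand): ggagggaAGGTgAGagtgcgt
NME4 (chr16:448377-448397, + strand): gctcacCtGGTggGgaaagtg
HMGN1 (chr21:40717744-40717764, - strand): ttttttCAGGTgAtTggtctt
TANK (chr2:162017915-162017935, + strand): aaacgagAGGTAgcagagaag
FAM45A (chr10:120864526-120864546, + strand): ctgaggaAtGTAAtTatcttc

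RHPN1 had the largest fall. Ψ of its 157-nt exon (chr8:144461999-144462155, + strand), exon 9 of the canonical GENCODE transcript and coding throughout, was 0.853, 0.825 and 0.936 in the DMSO libraries and 0.216, 0.179 and 0.343 in the GSK591 libraries. The groups did not overlap, and the exon went from included in most transcripts to skipped in most (ΔΨ = -0.625, adjusted p = 3.31e-16). It borders a listed RI. The exon of the kinase ULK3 has only 22 nt (chr15:75130493-75130514, - strand) and is annotated only in a retained-intron transcript. Its Ψ was 0.937, 0.822 and 1 in the DMSO libraries and 0.258, 0.3 and 0.357 in the GSK591 libraries (ΔΨ = -0.614, adjusted p = 5.23e-11), so even the lowest DMSO library was more than 0.4 above the highest GSK591 library. DALRD3, a partner in the methylation of arginine tRNA, had a coding exon of 114 nt (chr3:49053406-49053519, - strand), exon 10 of the canonical transcript. Nearly every transcript of the control cells held it, with Ψ of 1, 0.908 and 1 in the DMSO libraries and 0.43, 0.324 and 0.362 in the GSK591 libraries (ΔΨ = -0.597, adjusted p = 1.32e-11). It also borders a listed RI.

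MDM4 encodes an inhibitor of p53. Its 68-nt coding exon 6 (chr1:204506558-204506625, + strand) had Ψ of 0.673, 0.78 and 0.805 in the DMSO libraries and 0.2, 0.113 and 0.173 in the GSK591 libraries. The exon was thus in most MDM4 transcripts of the control cells and in fewer than 1 in 4 after GSK591 (ΔΨ = -0.591, adjusted p = 3.65e-11). A shorter version of this exon, of 39 nt with the same 5′ splice site (chr1:204506587-204506625, + strand), fell as well, from 0.234, 0.421 and 0.475 to 0.0672, 0.0524 and 0.0262 (ΔΨ = -0.328, adjusted p = 0.00166), but the skipping reads of both events are shared. The 5 other tested SE of MDM4 kept mean Ψ at 0.885 or above in both groups and had adjusted p of 0.399 to 0.704. The change in MDM4 thus passed the test at exon 6 and at no other tested SE of the gene.

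CACNA1G encodes a T-type calcium channel. Its 69-nt exon 20 (chr17:48680181-48680249, + strand) fell from 0.747, 0.815 and 0.74 with DMSO to 0.181, 0.173 and 0.181 with GSK591 (ΔΨ = -0.589, adjusted p = 7.98e-22), and the GSK591 libraries differed from each other by less than 0.01. An 88-nt exon of ARRDC1, which encodes an arrestin-like adaptor for ubiquitin ligases, fell from 0.932, 0.934 and 0.982 to 0.423, 0.354 and 0.327 (ΔΨ = -0.581, adjusted p = 2.62e-18). It lies at chr9:140507875-140507962, + strand, 51 of its bases are coding, and it borders a listed RI. SUN1 anchors the cytoskeleton to the nucleus at the inner nuclear membrane. Its 111-nt coding exon (chr7:889560-889670, + strand) fell from 0.723, 0.734 and 0.75 to 0.205, 0.163 and 0.162 (ΔΨ = -0.559, adjusted p = 4.35e-55). The 66-nt exon of ACTN4 (chr19:39218956-39219021, + strand), which encodes the actin cross-linker α-actinin-4, fell from 0.961, 0.953 and 0.937 to 0.42, 0.409 and 0.347 (ΔΨ = -0.559, adjusted p = 1.24e-13). In all of these genes every GSK591 library lay below every DMSO library, and limma also called all 8 falls. The choice by size of change in these same libraries favours both.

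**Figure D2:**
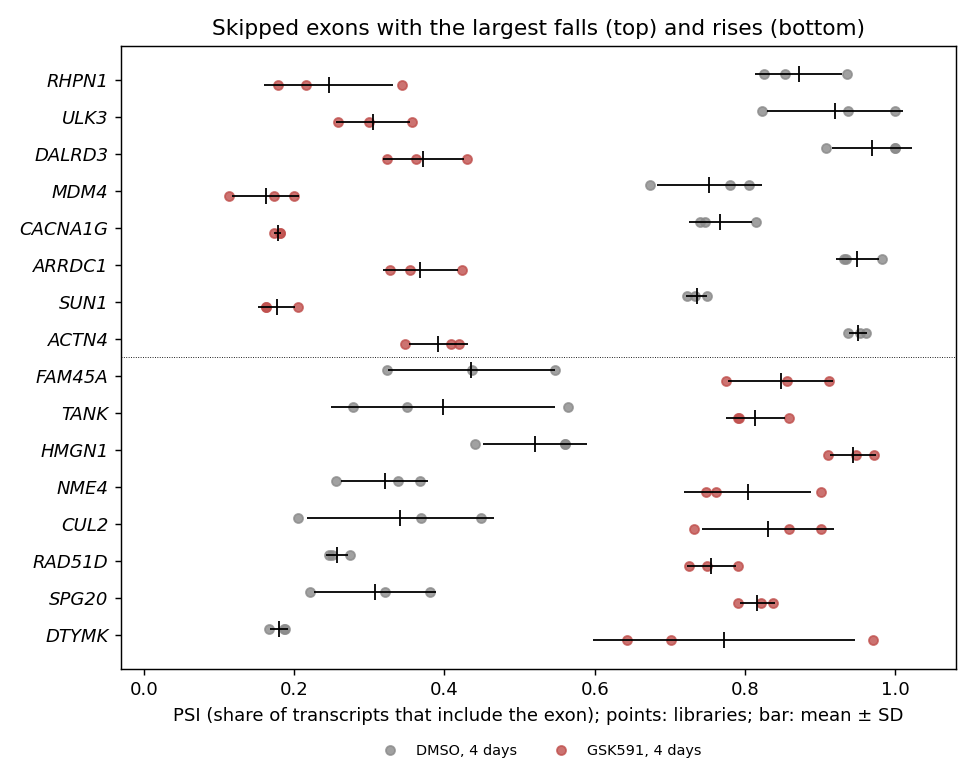
Ψ of the 8 SE with the largest falls and the 8 with the largest rises, with 3 DMSO libraries (grey) and 3 GSK591 libraries (red) as points and the mean ± SD as a bar. The groups are separate for all 16 exons, which were chosen for the size of their change in these libraries. ULK3 falls from 0.919 to 0.305 on average and DTYMK rises from 0.18 to 0.772, with 1 GSK591 library of DTYMK at 0.97.

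The exons with the largest rises were often not part of the main coding transcript. DTYMK encodes thymidylate kinase, which makes dTDP for DNA synthesis. A 415-nt exon in it (chr2:242621334-242621748, - strand) is annotated only in a transcript subject to nonsense-mediated decay (NMD). Its Ψ was 0.166, 0.188 and 0.186 in the DMSO libraries and 0.643, 0.702 and 0.97 in the GSK591 libraries (ΔΨ = 0.592, adjusted p = 4.20e-19), so that the GSK591 libraries were all higher but also spread widely. In SPG20, the gene of the endosomal protein spartin, a 72-nt noncoding exon (chr13:36910424-36910495, - strand) rose from 0.381, 0.321 and 0.221 to 0.821, 0.837 and 0.791 (ΔΨ = 0.509, adjusted p = 2.78e-23). RAD51D takes part in repair by homologous recombination, and its 119-nt coding exon 3 (chr17:33445520-33445638, - strand) rose from 0.246, 0.274 and 0.251 to 0.79, 0.726 and 0.749 (ΔΨ = 0.498, adjusted p = 7.57e-08). This is the only one of the 8 exons that belongs to the canonical transcript.

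CUL2, the scaffold of a ubiquitin ligase, had a 106-nt noncoding exon (chr10:35378824-35378929, - strand) with Ψ of 0.205, 0.369 and 0.449 in the DMSO libraries and 0.732, 0.859 and 0.901 in the GSK591 libraries (ΔΨ = 0.49, adjusted p = 8.39e-08). A 178-nt exon of NME4, a mitochondrial nucleoside diphosphate kinase, rose from 0.338, 0.256 and 0.368 to 0.901, 0.748 and 0.761 (ΔΨ = 0.483, adjusted p = 1.48e-06). For the 1463-nt exon of HMGN1, a nucleosome-binding protein, the change was from 0.441, 0.56 and 0.561 to 0.971, 0.948 and 0.911 (ΔΨ = 0.423, adjusted p = 4.91e-09). The exons of NME4 (chr16:448208-448385, + strand) and HMGN1 (chr21:40717756-40719218, - strand) are noncoding and border a listed RI, and the HMGN1 exon is annotated only in a retained-intron transcript. With no division by effective length the ΔΨ of this long exon was 0.0744. The remaining rises were in TANK, an adaptor of TRAF signalling, and in FAM45A. TANK had a 128-nt exon (chr2:162017796-162017923, + strand) that rose from 0.565, 0.35 and 0.279 to 0.859, 0.79 and 0.792 (ΔΨ = 0.416, adjusted p = 1.95e-04), and FAM45A a 259-nt exon (chr10:120864276-120864534, + strand) that rose from 0.547, 0.324 and 0.437 to 0.774, 0.912 and 0.856 (ΔΨ = 0.412, adjusted p = 7.53e-06). With limma 3 of the 8 rises were called (SPG20, RAD51D and HMGN1), and DTYMK, CUL2, NME4, TANK and FAM45A had adjusted p of 0.0559 to 0.0838. With no effective length the ΔΨ of FAM45A was 0.266.

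The exons that fell and those that rose differed in what surrounds them. These features were described once per exon, through its event with the most reads, for 3422 exons with lower and 983 with higher Ψ. The reference was 21171 exons that were not called although each form had at least 10 reads over the 6 libraries. Exons that fell sat between short introns, with a median of 991 nt upstream and 846 nt downstream, against 2140 and 2030 nt in the reference and 1510 and 1730 nt for exons that rose. With exons that touch a listed RI left out, the exons that fell still had shorter introns, at 1260 and 1080 nt against 2320 and 2190 nt. Median exon length was 108 nt for falls, 130 nt for rises and 117 nt in the reference. Of the exons that fell 76.0% lay wholly within coding sequence, against 43.1% of those that rose and 69.2% of the reference. A share of 5.96% of the falls and 16.1% of the rises was annotated only in NMD transcripts, against 8.38% of the reference. Among exons within coding sequence a length divisible by 3, which keeps the reading frame when the exon is skipped, was as frequent in falls (47.5%) as in the reference (47.5%) and more frequent in rises (62.7%). These sets differed in starting inclusion, with a median Ψ with DMSO of 0.955, 0.224 and 0.948 for falls, rises and reference. Among exons with a Ψ of 0.1 to 0.9 with DMSO the NMD-only share was 8.11%, 9.55% and 7.48% in the same order. Lengths divisible by 3 within coding sequence then made up 61.6%, 67.2% and 55.9%.

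The 5′ splice sites of exons that fell were further from the consensus. They matched CAGGTAAGT at 5.91 of 9 bases on average, against 6.24 for exons that rose and 6.25 in the reference. At least 7 matches were found in 24.7% of falls, 43.0% of rises and 39.8% of the reference. The bases that differed most were A at the position before the last exon base (54.1% of falls, 69.8% of rises and 64.7% of the reference) and A at the third intron base (50% of falls, 56.6% of rises and 59.5% of the reference), where G was found instead in 41.6% of falls and 33% of the reference. The G at the fifth intron base differed little (72.8%, 72.5% and 74.4%). Seen the other way, 19.1% of the 810 exons with at most 4 matches and 19.5% of the 4922 exons with 5 matches fell, against 8.85% of the 7602 exons with 7 matches and 7.6% of the 1961 exons with 8. The median number of reads per library of these 4 classes was 244, 279, 273 and 257, and their median Ψ with DMSO was 0.82, 0.942, 0.945 and 0.952. Among exons with a Ψ of 0.1 to 0.9 with DMSO the mean number of matches was again lowest in falls, at 5.9, against 6.28 in rises and 6.26 in the reference. In these exons A at the position before the last exon base still differed (53.9% of falls and 66.4% of the reference), whereas A at the third intron base was near the reference (57.1% and 58.8%), as was G there (33.6% and 32.6%). G at the fifth intron base was instead less frequent in falls (67.1% against 73.6%). C made up 30.3% of the bases at positions 20 to 6 before the exon in falls, 26.1% in rises and 27.1% in the reference. These shares are descriptions of exons that share genes and libraries, and no test was made on them.

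**Figure D3:**
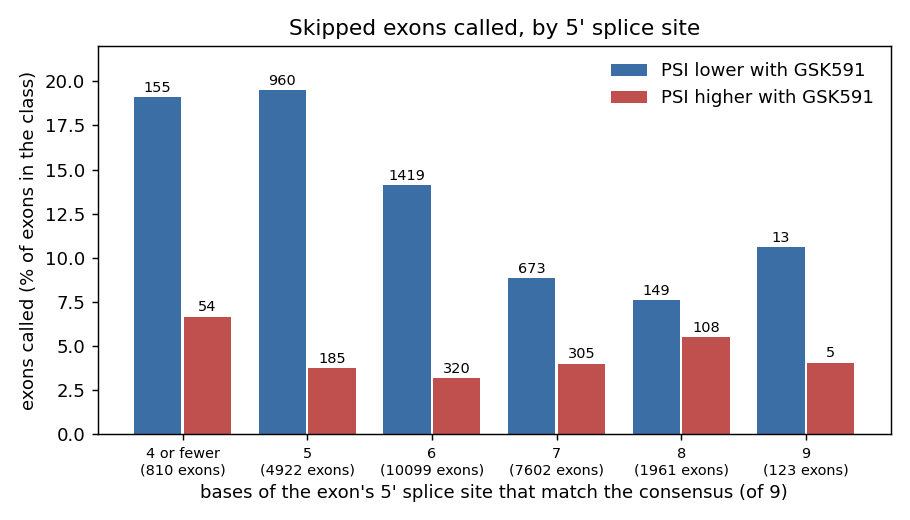
Share of exons called with lower (blue) or higher (red) Ψ, as a percentage of the exons with the given number of consensus matches at the 5′ splice site and at least 10 reads of each form. Numbers above the bars count the called exons, and those under the axis all exons of the class. The share that fell goes from 19.1% at 4 or fewer matches to 7.6% at 8, and the class with 9 matches holds only 123 exons.

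Very short exons were called more often in both directions than exons of 61 to 120 nt. Of 332 exons of 27 nt or less with at least 10 reads of each form 18.1% fell and 8.13% rose, against 14.2% and 2.96% of the 10568 exons of 61 to 120 nt. Their median Ψ with DMSO was 0.525, against 0.948 in the longer class. Other lengths came near these shares. Rises made up 7.08% of 1228 exons over 300 nt and 6.3% of 2128 exons of 201 to 300 nt, and 16.7% of 2611 exons of 28 to 60 nt fell. The 4 short exons with the largest changes were those of ULK3, SENP6, MLLT4 and CPSF7, all of which fell. Of these, ULK3, SENP6 and MLLT4 are shown whole, in capitals, with 3 intron bases on each side, because skipping removes the whole of so short a stretch. The CPSF7 exon is not printed.
ULK3 (chr15:75130490-75130517, - strand): gagGCGGGAGCTGCTTCACACTGAGgtg
SENP6 (chr6:76350400-76350423, + strand): cagTCTGGACCGAAAAGAAAGgta
MLLT4 (chr6:168314080-168314106, + strand): cagGAAGTAGACCAGGTTGACCAGgta
SENP6 removes SUMO chains from proteins. Ψ of its 18-nt exon was 0.537, 0.543 and 0.571 in the DMSO libraries and 0.118, 0.124 and 0.163 in the GSK591 libraries (ΔΨ = -0.415, adjusted p = 7.83e-14). The 21-nt exon 16 of MLLT4, the gene of the junction protein afadin, was at 0.399, 0.419 and 0.435 with DMSO and at 0.0589, 0 and 0 with GSK591 (ΔΨ = -0.398, adjusted p = 2.22e-06), so that 2 of the 3 GSK591 libraries had no inclusion read. In CPSF7, a subunit of the mRNA 3′-end cleavage factor, a 27-nt exon that is annotated only in an NMD transcript and borders a listed RI fell from 0.717, 0.836 and 0.81 to 0.542, 0.435 and 0.382 (ΔΨ = -0.335, adjusted p = 2.71e-08). Of these 4, limma called ULK3, SENP6 and MLLT4.

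Alternative 5′ splice sites are where 2 sites of the same exon compete. Some of the largest changes are shown with both sites, to set the competing sequences side by side. Each pair gives the site of the long form and then that of the short form, with matches to the consensus in capitals.
PCNT, long (chr21:47852121-47852141, + strand): gagaagCtGGTgAGagccgcc
PCNT, short (chr21:47851884-47851904, + strand): gagaaggAGGTAAGTgccaca
CPNE1, long (chr20:34220073-34220093, - strand): gataagaAGGTgtGTctggaa
CPNE1, short (chr20:34220221-34220241, - strand): accatcacGGTAAGgaaccca
NT5C, long (chr17:73127048-73127068, - strand): acccagaAGGTggGggtgggg
NT5C, short (chr17:73127128-73127148, - strand): ggtgagaAGGTgtGgctgccc
WBSCR22, long (chr7:73098245-73098265, + strand): aggaccCgGGTggGTgccgat
WBSCR22, short (chr7:73098223-73098243, + strand): aatttgggGGTgcGggaaggg
PCNT encodes pericentrin, a scaffold of the centrosome. Exon 38 of PCNT has a 237-nt segment (chr21:47851893-47852129, + strand), all coding, that is kept when the downstream site is used. Its Ψ was 0.832, 0.726 and 0.798 in the DMSO libraries and 0.171, 0.152 and 0.176 in the GSK591 libraries (ΔΨ = -0.619, adjusted p = 1.92e-27). The downstream site matches the consensus at 6 bases and the upstream site at 8, and the short form became the main form. A fall was also seen in CPNE1, a calcium-dependent membrane-binding protein, from 0.741, 0.752 and 0.742 to 0.313, 0.349 and 0.322 (ΔΨ = -0.417, adjusted p = 1.08e-62), and at the read-through locus TMEM256-PLSCR3, from 0.657, 0.595 and 0.741 to 0.185, 0.162 and 0.203 (ΔΨ = -0.481, adjusted p = 3.50e-30). Both of these segments, chr20:34220085-34220232, - strand and chr17:7296920-7297422, - strand, border a listed RI and are annotated only in a retained-intron transcript.

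The largest rises of the long form were in PRPF4B, NT5C and WBSCR22. PRPF4B, a kinase of the spliceosome, had a noncoding segment of 127 nt (chr6:4062868-4062994, + strand) with Ψ of 0.37, 0.506 and 0.319 in the DMSO libraries and 1, 0.917 and 0.91 in the GSK591 libraries (ΔΨ = 0.544, adjusted p = 2.83e-08). In NT5C, a cytosolic nucleotidase, an 80-nt segment (chr17:73127060-73127139, - strand) rose from 0.199, 0.215 and 0.21 to 0.794, 0.743 and 0.691 (ΔΨ = 0.535, adjusted p = 6.42e-73). WBSCR22, a methyltransferase of ribosomal RNA, used the downstream of 2 sites 22 nt apart (chr7:73098232-73098253, + strand) more, from 0.297, 0.225 and 0.316 to 0.712, 0.877 and 0.731 (ΔΨ = 0.494, adjusted p = 3.03e-09). The sites of the long and the short form match the consensus at 6 and 4 bases in WBSCR22, and at equal numbers in CPNE1 (6), NT5C (5) and PRPF4B (6). All 6 A5SS were also called with limma, and no GSK591 library overlapped with a DMSO library in any of them. Their choice by size of change favours both.

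Over all A5SS, described once for each pair of sites, the form that gained tended to be the one whose site matches the consensus at more bases. Where the long form fell (308 pairs), the site of the short form had more matches in 155 pairs (50.3%) and that of the long form in 63 (20.5%). Where the long form rose (538 pairs), the long form had more matches in 236 pairs (43.9%) and the short form in 135 (25.1%). Among 1760 pairs that were not called, the shares were about even, at 31.8% and 33.8%. With pairs that touch a listed RI left out, the short form had more matches in 53.8% of 171 falls, and the long form in 44.9% of 443 rises. The segment between the sites had a median of 142 nt in falls, 82.5 nt in rises and 58 nt in pairs not called. No test was made on these shares.

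**Figure D4:**
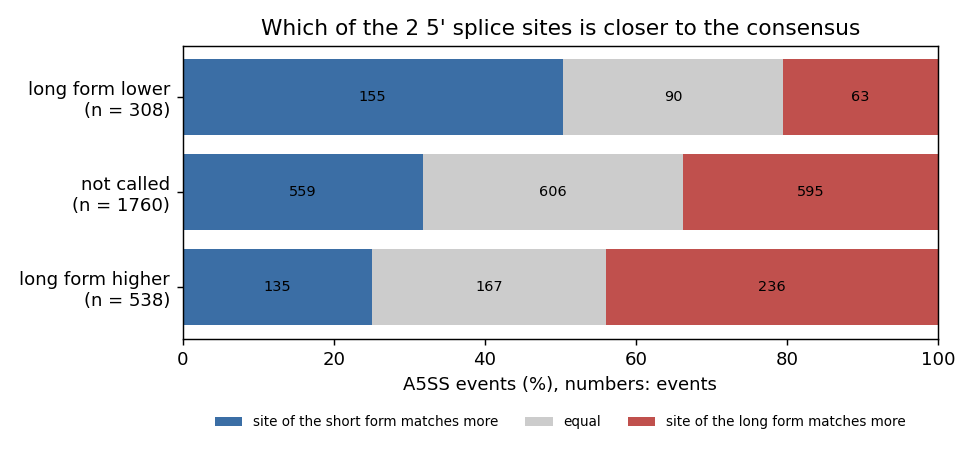
A5SS pairs split by which of the competing 5′ splice sites matches the consensus CAGGTAAGT at more bases, for pairs whose long form fell, was not called or rose, as a percentage of pairs with the number of pairs written in each bar. The site of the short form matches more in 50.3% of falls and in 25.1% of rises.

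Alternative 3′ splice sites changed least clearly, and limma called none of them (905 of 6280 had an unadjusted p under 0.05, and the smallest adjusted p was 0.0576). The largest rise was in RNF216, a ubiquitin ligase, where a 269-nt segment annotated only in an NMD transcript (chr7:5778984-5779252, - strand) went from 0.0706, 0.0702 and 0.0326 with DMSO to 0.619, 0.694 and 0.609 with GSK591 (ΔΨ = 0.583, adjusted p = 1.62e-53). A site that was almost unused in control cells was thus the main site after GSK591. PLD3, a lysosomal nuclease, had a 35-nt segment (chr19:40872291-40872325, + strand) that rose from 0.321, 0.297 and 0.344 to 0.894, 0.718 and 0.827 (ΔΨ = 0.492, adjusted p = 1.71e-13). The third rise was in STAG3L4, a pseudogene of a cohesin subunit with several near copies, so that its reads are uncertain (chr7:66773564-66773921, + strand, ΔΨ = 0.463, adjusted p = 9.53e-23).

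The largest A3SS falls were in SNHG1, TMEM141 and PRPF40B. SNHG1 is a host gene of small nucleolar RNAs, and a 16-nt segment of it (chr11:62621306-62621321, - strand) went from 0.644, 0.56 and 0.345 to 0.0609, 0.141 and 0.0664 (ΔΨ = -0.427, adjusted p = 1.44e-10). TMEM141 had a segment of 304 nt (chr9:139686399-139686702, + strand) that fell from 0.539, 0.639 and 0.71 to 0.192, 0.207 and 0.209 (ΔΨ = -0.426, adjusted p = 1.69e-28), and PRPF40B, a protein linked to the U1 snRNP, one of 413 nt (chr12:50026797-50027209, + strand) that fell from 0.621, 0.658 and 0.709 to 0.271, 0.257 and 0.249 (ΔΨ = -0.404, adjusted p = 3.57e-07). The PRPF40B segment begins with exon 7 of the gene, and its short form uses the junction that skips this exon. It therefore shares reads with the SE of exon 7 given below. All 3 falls border a listed RI, as do the rises in PLD3 and STAG3L4. The segments of TMEM141, PRPF40B and STAG3L4 are annotated only in retained-intron transcripts. Pairs of sites 3 nt apart, the most common kind, were seldom called: they made up 16.3% of the 3666 pairs not called, against 2.2% of 182 falls and 1.17% of 257 rises. The median segment had 95.5 nt in falls, 108 nt in rises and 38 nt in pairs not called.

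In MXE the earlier exon of the pair was gained more often than lost, and some of these events share exons and reads with called SE. Of the 1837 called MXE 973 (53%) held an exon that was also a called SE, against 14.8% of the MXE not called. The SUN1 pair was the 84-nt exon (chr7:889157-889240, + strand) and the 111-nt exon described above (chr7:889560-889670). Ψ of the form with only the 84-nt exon was 0.226, 0.175 and 0.191 in the DMSO libraries and 0.751, 0.778 and 0.761 in the GSK591 libraries (ΔΨ = 0.566, adjusted p = 2.20e-31). In the SE of SUN1 the 84-nt exon flanks the 111-nt exon in both forms. The MXE shares the skipping junction of that SE, so it does not show a replacement. For RHPN1 the form with exon 9 and without the next exon (chr8:144462232-144462345) fell from 0.743, 0.632 and 0.697 to 0.252, 0.174 and 0.344 (ΔΨ = -0.434, adjusted p = 2.02e-07). That next exon flanks exon 9 in both forms of the RHPN1 SE, and the skipping junction is again shared. SNHG1, on the minus strand, had the largest fall, in which the earlier exon (chr11:62622360-62622410) gave way to the 33-nt exon 5 (chr11:62621991-62622023, - strand), with Ψ going from 0.817, 0.781 and 0.784 to 0.204, 0.245 and 0.128 (ΔΨ = -0.602, adjusted p = 3.88e-51). The form with exon 5 uses the junction of the short form in the SNHG1 A3SS above, so these events share reads.

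Both the SNHG1 and the RHPN1 pair border a listed RI. The third fall was in TFPI, an inhibitor of blood coagulation, where the earlier exon (chr2:188394091-188394212) gave way to a noncoding exon of 31 nt (chr2:188378343-188378373, - strand), and Ψ of the earlier exon was 0.518, 0.465 and 0.41 in the DMSO libraries and 0.0647, 0.0569 and 0.0953 in the GSK591 libraries (ΔΨ = -0.392, adjusted p = 5.76e-16). MSH5, a meiotic relative of the mismatch repair proteins, had a coding 63-nt exon 5 (chr6:31710885-31710947, + strand) that rose from 0.492, 0.503 and 0.332 to 0.936, 0.841 and 0.974 (ΔΨ = 0.475, adjusted p = 5.32e-07). PARPBP, which restrains homologous recombination, had a 155-nt coding exon 6 (chr12:102559507-102559661, + strand) that rose from 0.368, 0.348 and 0.429 to 0.76, 0.811 and 0.968 (ΔΨ = 0.465, adjusted p = 9.57e-06). SNHG1, RHPN1, TFPI and SUN1 were also called with limma, whereas MSH5 and PARPBP had adjusted p of 0.0577 and 0.112.

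Gene lists of splicing factors and of cell functions were described by their counts beside the 7.83% of all tested exon events that were called (8797 of 112359). A called exon event was found in 3663 of the 10820 genes with a tested one. The gene counts of the lists were not tested against this share, and a gene with more tested events has more chances of a call. The hnRNP and PTB list, proteins that mostly oppose exon recognition, had 81 of 440 events called (18.4%), 47 falls and 34 rises in 20 of 24 genes, with a median ΔΨ of -0.000146 over its events. The 39-nt exon of PCBP2 (chr12:53861589-53861627, + strand), exon 12 of this poly(C)-binding protein, is deeply covered at 3830 reads per library, and its Ψ was 0.663, 0.62 and 0.622 in the DMSO libraries and 0.192, 0.192 and 0.177 in the GSK591 libraries (ΔΨ = -0.448). Its adjusted p was at most 3.71e-20 with any library left out and 0.0457 with limma. HNRNPC binds poly(U) tracts of nascent RNA. A 39-nt coding segment at an A5SS of HNRNPC (chr14:21699117-21699155, - strand) rose from 0.419, 0.402 and 0.411 to 0.607, 0.606 and 0.59 (ΔΨ = 0.191, adjusted p = 3.62e-73). PCBP4 had an A5SS segment that borders a listed RI, is annotated only in a retained-intron transcript and fell from 0.569, 0.578 and 0.731 to 0.414, 0.303 and 0.331 (ΔΨ = -0.276, adjusted p = 3.39e-05). HNRNPC and PCBP4 were not called with limma (adjusted p = 0.0954 and 0.0752).

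SR proteins, which promote exon recognition, had 11 of 69 events called (15.9%), 5 falls and 6 rises, in 6 of 10 genes. SRSF10 had the largest change, in a 51-nt coding exon (chr1:24298063-24298113, - strand) that fell from 0.913, 0.919 and 0.911 to 0.477, 0.63 and 0.71 (ΔΨ = -0.309, adjusted p = 5.57e-13). In SRSF6 and SRSF7 the called exons are the long noncoding exons of 268 and 449 nt that are annotated in NMD transcripts, through which these genes are known to limit their own levels. Ψ of the SRSF6 exon (chr20:42087793-42088060, + strand) was 0.101, 0.104 and 0.116 in the DMSO libraries and 0.186, 0.197 and 0.196 in the GSK591 libraries (ΔΨ = 0.0859, adjusted p = 1.80e-13). The SRSF7 exon (chr2:38976040-38976488, - strand), which borders a listed RI, rose from 0.0942, 0.118 and 0.0916 to 0.139, 0.164 and 0.16 (ΔΨ = 0.0533, adjusted p = 4.01e-13). Limma called none of these 3 exons, with adjusted p of 0.0674, 0.432 and 0.575. The list of SR-like proteins and splicing kinases had 28 of 320 events called (8.75%), 11 falls and 17 rises. An exon of 2868 nt in SREK1 (chr5:65451893-65454760, + strand), annotated only in a retained-intron transcript, rose from 0.18, 0.204 and 0.196 to 0.474, 0.418 and 0.507 (ΔΨ = 0.273, adjusted p = 2.58e-24), but was not called with limma (adjusted p = 0.154). With no effective length the ΔΨ was 0.117 for SREK1, 0.15 for SRSF6 and 0.112 for SRSF7. LUC7L, a protein of the U1 snRNP, had an MXE that borders a listed RI. In it the earlier exon (chr16:277241-278401) rose from 0.182, 0.199 and 0.185 to 0.447, 0.514 and 0.467 (ΔΨ = 0.287, adjusted p = 4.24e-37), and exon 3 (chr16:270648-270746, - strand) was used less in turn.

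Among snRNP and core spliceosome proteins 52 events were called (9.47% of those tested), 32 falls and 20 rises in 22 of 46 genes. Exon 7 of PRPF40B (chr12:50026797-50026907, + strand), 111 nt and bordering a listed RI, fell from 0.799, 0.854 and 0.839 to 0.376, 0.269 and 0.332 (ΔΨ = -0.505, adjusted p = 2.27e-11). The 67-nt exon 3 of U2AF1 (chr21:44520563-44520629, - strand), the factor that reads the AG of the 3′ splice site, borders a listed RI and was also lost more often, with Ψ of 0.556, 0.584 and 0.506 in the DMSO libraries and 0.236, 0.23 and 0.239 in the GSK591 libraries (ΔΨ = -0.314, adjusted p = 8.70e-52). SNRPN, which encodes an Sm protein, had an A5SS in noncoding sequence (chr15:25212300-25212387, + strand) that rose from 0.301, 0.108 and 0.43 to 0.611, 0.604 and 0.636 (ΔΨ = 0.337, adjusted p = 0.00103). U2AF1 and SNRPN were not called with limma (adjusted p = 0.129 and 0.0986).

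PRMT5, the inhibited enzyme itself, had no called SE. The gene had 5 tested SE at 3 exons with mean Ψ of at least 0.979 in both groups and adjusted p of 0.0561 to 0.864. The event with the lowest p, at exon 2 (chr14:23397706-23397824, - strand), was at 0.997, 0.987 and 0.998 with DMSO and 1 in all GSK591 libraries (ΔΨ = 0.00588), and passed the threshold without DMSO library a (adjusted p = 0.0496) or without DMSO library c (adjusted p = 0.0364). The list of PRMT enzymes and PRMT5 partners had 13 of 156 events called (8.33%), 9 falls and 4 rises in 5 of 11 genes, and these were small. Exon 11 of PRMT2 (chr21:48083295-48083466, + strand), which borders a listed RI, rose from 0.743, 0.855 and 0.904 to 1, 0.948 and 0.978 (ΔΨ = 0.141, adjusted p = 0.00424), and the call was lost without DMSO library a (adjusted p = 0.0878), GSK591 library a (0.108) or GSK591 library c (0.0723). Exon 15 of CARM1, a Type I PRMT (chr19:11032051-11032119, + strand), fell from 0.229, 0.27 and 0.284 to 0.136, 0.19 and 0.173 (ΔΨ = -0.0945, adjusted p = 0.00172), but not without GSK591 library a (adjusted p = 0.0752). CLNS1A encodes pICln, which presents Sm proteins to PRMT5. In an MXE of CLNS1A, Ψ of the exon at chr11:77340808-77340944, which precedes exon 6 (chr11:77330651-77330740, - strand), was 0.426, 0.352 and 0.483 in the DMSO libraries and 0.501, 0.542 and 0.499 in the GSK591 libraries (ΔΨ = 0.0939, adjusted p = 9.15e-05), and without DMSO library b the adjusted p was 0.057. With limma PRMT2, CARM1 and CLNS1A were not called (adjusted p = 0.122, 0.519 and 0.353), and with no effective length the ΔΨ of PRMT2 was 0.0744.

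The list of p53 regulators and apoptosis genes had 39 of 356 events called (11%), 25 falls and 14 rises in 15 of 36 genes. Beside MDM4, a 140-nt coding exon of BCL2L12 (chr19:50170279-50170418, + strand), a member of the BCL2 family, fell from 0.632, 0.695 and 0.868 to 0.274, 0.332 and 0.268 (ΔΨ = -0.44, adjusted p = 1.19e-04). CASP8 encodes the initiator caspase of death receptors, and an A5SS segment of 136 nt in it that is annotated only in an NMD transcript (chr2:202141692-202141827, + strand) rose from 0.199, 0.195 and 0.165 to 0.476, 0.447 and 0.4 (ΔΨ = 0.255, adjusted p = 1.09e-15). DNA repair genes had 86 of 1397 events called (6.16%, below the share of all events), 56 falls and 30 rises in 29 of 79 genes. MUTYH, the glycosylase that removes adenine opposite oxidised guanine, lost its 191-nt exon 7 (chr1:45799085-45799275, - strand), with Ψ of 0.906, 0.793 and 1 in the DMSO libraries and 0.418, 0.452 and 0.44 in the GSK591 libraries (ΔΨ = -0.463, adjusted p = 2.23e-04). The 100-nt exon 7 of ERCC1 (chr19:45918119-45918218, - strand), a subunit of the nuclease of nucleotide excision repair, fell from 0.854, 0.889 and 0.883 to 0.56, 0.591 and 0.589 (ΔΨ = -0.295, adjusted p = 2.25e-21). BCL2L12, MUTYH and ERCC1 were not called with limma (adjusted p = 0.082, 0.0638 and 0.0832).

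Mitosis and cell division genes had 118 of 1535 events called (7.69%), 82 falls and 36 rises in 49 of 101 genes. KNTC1, a kinetochore protein of the spindle checkpoint, lost its 208-nt exon 44 (chr12:123082278-123082485, + strand), with Ψ of 0.917, 0.942 and 0.957 in the DMSO libraries and 0.491, 0.635 and 0.305 in the GSK591 libraries (ΔΨ = -0.462, adjusted p = 2.92e-08), and here the GSK591 libraries spread over more than 0.3. The 95-nt exon 3 of CDC25C (chr5:137665242-137665336, - strand), the phosphatase that activates CDK1, fell from 0.618, 0.624 and 0.685 to 0.193, 0.172 and 0.344 (ΔΨ = -0.406, adjusted p = 9.08e-07). In ANAPC7, a subunit of the anaphase-promoting complex, the 112-nt exon 4 (chr12:110826317-110826428, - strand) fell from 0.953, 0.94 and 0.938 to 0.708, 0.638 and 0.649 (ΔΨ = -0.279, adjusted p = 3.03e-25). CDC25C was not called with limma (adjusted p = 0.083), and the ΔΨ of KNTC1 was -0.301 with no effective length.

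Genes known for isoform switches between epithelial and mesenchymal cells had 102 of 790 events called (12.9%), 74 falls and 28 rises in 30 of 41 genes. CD44 held 24 of these called events and CTNND1 10, and events of 1 gene can share exons and reads. CD47, the ligand that restrains phagocytosis, had a 32-nt exon 8 (chr3:107770786-107770817, - strand) that fell from 0.725, 0.732 and 0.714 to 0.374, 0.396 and 0.421 (ΔΨ = -0.327, adjusted p = 1.59e-16). The 36-nt exon 7 of the splicing regulator MBNL1 (chr3:152173331-152173366, + strand) fell from 0.672, 0.694 and 0.576 to 0.35, 0.354 and 0.278 (ΔΨ = -0.32, adjusted p = 1.87e-10), and the 57-nt exon 11 of CLSTN1 (chr1:9797556-9797612, - strand), a calsyntenin of vesicle transport, from 0.69, 0.718 and 0.683 to 0.405, 0.407 and 0.33 (ΔΨ = -0.317, adjusted p = 1.03e-19). Limma called none of these 3, with adjusted p of 0.127, 0.153 and 0.146. The list of classic mutually exclusive exon genes had 78 of 422 events called (18.5%), 42 falls and 36 rises in 23 of 25 genes. Apart from ACTN4, a 151-nt exon of the receptor FGFR1 (chr8:38280543-38280693, - strand) rose from 0.0538, 0.0332 and 0.0452 to 0.327, 0.379 and 0.426 (ΔΨ = 0.333, adjusted p = 5.29e-37), and a noncoding A5SS segment of P4HA2 (chr5:131562390-131562778, - strand), a prolyl hydroxylase of collagen, from 0.0501, 0.248 and 0.217 to 0.411, 0.411 and 0.53 (ΔΨ = 0.279, adjusted p = 1.81e-05), the latter not called with limma (adjusted p = 0.116). The median ΔΨ of the SE of each of the 10 lists lay between -0.00285 and -0.000292, close to the -0.0019 of all tested SE. Limma called 1 to 23 events per list. In all 64 called events named here the GSK591 and DMSO libraries did not overlap. The events were chosen for the size of their change among called events, which favours such separation. It is therefore no further support, and its share over all tested events is not given here.

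Some genes had many called exons. Over all genes 3422 of 58168 tested exons were called lower and 983 higher. Neighbouring SE of a gene can share reads, so their calls are not independent. Of 2827 genes with a called exon, counted once per exon, 1852 had 1, 608 had 2 and 367 had 3 or more. SLC25A39, a mitochondrial carrier, had the most, with 10 of 16 tested exons called and all of them lower. DPP7 had 8 of 15, MYL6 8 of 10 and C16orf13 6 of 6, again all lower, whereas ADAM15 had 3 lower and 4 higher exons among 20. These genes were chosen after their values were seen.

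The time points were compared next, to see whether the changes of day 4 were present earlier and remained later. At 2 days the same exons had moved part of the way: for 4176 SE that fell at 4 days and could be compared, the median ΔΨ was -0.0581 at 2 days and -0.0896 at 4 days, and for 1184 SE that rose it was 0.0513 and 0.0934. Both use the same 4-day DMSO libraries, and the SE were chosen at 4 days. The 2-day libraries had no DMSO control of their own day in these comparisons. Time of treatment and time in culture can therefore not be told apart, here or in the direct test that follows. Tested directly, 181 of 65338 SE (0.277%) differed between 4 and 2 days of GSK591, and limma called none of them, with 3334 SE at an unadjusted p under 0.05. Of the 39 called SE named above 6 differed. DTYMK went from 0.425 ± 0.0923 at 2 days to 0.772 ± 0.174 at 4 days (SD, n = 3, adjusted p = 0.00298), FGFR1 from 0.176 ± 0.0317 to 0.377 ± 0.0496 (adjusted p = 2.32e-04) and PCBP2 from 0.273 ± 0.00571 to 0.187 ± 0.00899 (adjusted p = 4.06e-11). The others were SRSF6, SRSF7 and SREK1. MDM4 exon 6 was at 0.367 ± 0.157 at 2 days and 0.162 ± 0.0443 at 4 days, a difference that did not pass the test (adjusted p = 0.536).

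The 7-day libraries have a DMSO control of their own and so measure the GSK591 effect again in other libraries. Of 5260 SE called at 4 days and testable at 7 days 4563 (86.7%) had the same direction, against 61.5% of all 54702 SE tested at both times. At 7 days 1879 of the 5260 (35.7%) were called, against 6.56% of all, and 1838 of these had the direction of day 4. Effects were smaller: the SE that fell had a median ΔΨ of -0.0884 at 4 days and -0.0274 at 7 days, and those that rose 0.0931 and 0.0471, where the 4-day values were the ones chosen. A treatment by day term was called for 564 of the 54702 SE (1.03%), and for 380 of the 5260. Limma called none of these, with 4924 at an unadjusted p under 0.05, and on simulated data this term had 15% false calls. For RHPN1 the 7-day means were 0.878 ± 0.0361 with DMSO and 0.198 ± 0.0395 with GSK591 (SD, n = 3, adjusted p = 5.12e-18), and for DTYMK 0.125 ± 0.0487 and 0.791 ± 0.103 (adjusted p = 8.38e-13). For MDM4 exon 6 they were 0.74 ± 0.14 and 0.529 ± 0.145, which did not pass the test (adjusted p = 0.301).

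MS023 leaves PRMT5 active and inhibits the enzymes that form asymmetric dimethylarginine, so its libraries ask whether another PRMT inhibitor gives these changes. Compared directly at 4 days and the same dose, 7562 of 64808 SE (11.7%) differed between the inhibitors, 5002 lower and 2560 higher with GSK591 (limma called 2180). The SE described next were chosen on these same GSK591 libraries, which favours a difference in the direction of the choice, so their shares are a description. Of 4076 SE that fell with GSK591 71.3% differed from MS023 in this test, and 2875 of these 2905 were lower with GSK591. Their median ΔΨ against the shared DMSO libraries was -0.0927 for GSK591 and -0.00251 for MS023. Of 1194 SE that rose 829 (69.4%) differed, 820 of them higher with GSK591, and the medians were 0.0945 and 0.00369. Among the 39 called SE named above 38 differed between the inhibitors, the exception being CARM1 with 0.166 ± 0.0277 for GSK591 and 0.157 ± 0.0208 for MS023 (SD, n = 3, adjusted p = 0.774). MDM4 exon 6 was at 0.857 ± 0.086 with MS023, CACNA1G exon 20 at 0.943 ± 0.0238 and CD47 exon 8 at 0.884 ± 0.0341. With DMSO they were at 0.753 ± 0.0699, 0.767 ± 0.0417 and 0.724 ± 0.00943, so in each of these the MS023 mean lay above the DMSO mean and the GSK591 mean below it. SUN1 was instead lower with MS023 (0.538 ± 0.0183) than with DMSO (0.736 ± 0.0135), though not as low as with GSK591 (0.177 ± 0.0246).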

How the data were processed

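Poly(A) RNA of A549 cells was sequenced by the authors, who trimmed reads (Trim Galore 0.6.5), aligned them to hg19 (STAR 2.4.2a) and counted events with rMATS 4.0.2 per the labels. The paper's resource list gives another rMATS release. The deposited tables hold, in comma-separated cells, whole-number counts of the inclusion and skipping forms of 3 unnamed libraries per group, here called a, b and c by position, including reads within the alternative segment, not normalized. Effective lengths were taken from the tables, whereas the authors' differences, p-values and FDR were not used, and 0 other columns of per-sample values were left out. The 7-day control was inferred from the labels.

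Events with at least 10 reads in all libraries were tested by logistic regression with a quasi-binomial variance. The dispersion was moderated with squeezeVar of limma 3.58.1 (R 4.3.3) towards a trend on the counts, and values under 1 were set to 1. F tests were adjusted by Benjamini-Hochberg within each event type. The trend was chosen on simulated data with the real depths: of 200 changed SE, 45% were recovered at a change of 2 on the log2 odds scale and 13% at a change of 1, with 1.69% false calls, and 0 of 79993 were called with no change simulated. For A3SS, A5SS and MXE 74%, 74% and 89% were recovered at 2, with 3.03%, 6.03% and 5.16% false calls. These shares belong to 200 changed events per type and need not hold for the number that changed in these data. As an alternative, limma tested log2 odds with 0.5 added to each count. The treatment by day term was an F test in the same model over 4 groups. Of the tested exons 99.8% had GT or GC and AG at their ends in GRCh37, against 10.3% with GT or GC after a shift of 7 bases, and 99.6% were exons of GENCODE. Exon numbers are those of the canonical GENCODE transcript.

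Events were named by rule: among called events with a mean of 50 reads, 1 per gene, the 8 SE and the 3 A3SS, A5SS and MXE with the largest change each way, at most 3 per gene list, 4 SE of 27 nt or less, and every tested SE of MDM4 and PRMT5. Lists and rule were chosen with earlier results of these data known. Python 3.11.15, pandas 2.3.3, scipy 1.17.1, pysam 0.24.0 and matplotlib 3.10.9 were used.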

Additional observations from a re-analysis of the deposited data

Results flagged for a closer look

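The GSK591 effect differed between 7 and 4 days for 5 of the 37 called and named SE that could be tested at both times, by the treatment by day term over 54702 SE, of which 1.03% were called. On simulated data this term had 15% false calls, and limma called no SE. In CLSTN1 exon 11 Ψ fell with GSK591 at 4 days, whereas the 7-day means were 0.434 ± 0.0882 with DMSO and 0.534 ± 0.0397 with GSK591 (SD, n = 3, adjusted p of the term = 6.31e-12). The DMSO mean itself was 0.697 ± 0.0186 at 4 days. The fall of the SUN1 exon was smaller at 7 days (ΔΨ = -0.301) than at 4 days (ΔΨ = -0.559, adjusted p = 2.15e-04), as was that of U2AF1 exon 3 (ΔΨ = -0.16 and -0.314, adjusted p = 8.90e-04). The rises of the SPG20 exon (ΔΨ = 0.258 at 7 days and 0.509 at 4 days, adjusted p = 0.0104) and of the FAM45A exon (ΔΨ = 0.0534 and 0.412, adjusted p = 0.0287) were smaller at 7 days as well. Groups of 3 libraries were not tested for outlying libraries.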

How the results depend on the processing

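A minimum of 20 reads or of 1 read, a dispersion not held at 1, adjustment over the 4 event types together, 1 event per exon or site pair, at least 10 reads of each form, and leaving out events that touch a listed RI kept the total of calls of each event type within 1.5 times the reported one. With RI-touching events left out, however, falls went from 201 to 111 for A3SS and from 335 to 196 for A5SS. Limma on log2 odds gave 1042 SE, 0 A3SS, 347 A5SS and 418 MXE (1099 RI), 2180 SE between GSK591 and MS023, 0 between 4 and 2 days and 0 for the 7 against 4 days term. Without the trend of the dispersion, an alternative added after the data were seen, 8470 SE were called. The share of falls among called SE (78.2%, 95% Wilson interval 77.1% to 79.2%) was 76.2% without the trend, 86.6% with limma and 77.0% with RI-touching events left out. The interval treats events as independent, although they share exons, genes and libraries, so it does not measure the spread between libraries. The median ΔΨ of tested SE was -0.00107 with no effective length. Leaving out 1 library gave 3647 to 4683 SE, 345 to 386 A3SS, 648 to 777 A5SS, 1087 to 1421 MXE and 1345 to 1409 RI calls, a share of falls of 76.6% to 80.7%, and a median ΔΨ of -0.00259 to -0.00159. For MXE the lowest counts came without GSK591 library a (1178) and without GSK591 library c (1087). The 64 named and called events kept their direction under every setting run. With limma 33 of them lost the call, and of those in the report only PRMT2, CARM1 and CLNS1A lost it without 1 library. In simulation at these depths, with 200 SE changed, 13% of those changed by 1 on the log2 odds scale were recovered. Recovery at an adjusted p depends on how many events change, and 5578 SE were called here. Changes of that size can be missed, but the share missed in these data is not known. The planned edgeR fit was not run. No paired analysis was possible because the columns carry no replicate numbers.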
